A study of Mus musculus with 2 samples.

Results

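Meiotic chromosomes are organised as loops on a protein axis, and 8 genes that encode this axis and its cohesin were followed through an RNA immunoprecipitation of ELAVL2 from newborn mouse ovary. They were taken by symbol from the authors' deposited table of peaks and genes: Hormad1, Hormad2, Sycp2, Sycp3, Smc1b, Rec8, Rad21l and Stag3, which are 8 of 49997 genes in the reference annotation (RefSeq, GRCm38.p6, the assembly of mm10). In RNA immunoprecipitation with sequencing (RIP-seq), an antibody draws a protein and its attached RNA from a lysate, and the recovered RNA is set against the RNA of the lysate itself. One sample was the anti-ELAVL2 RIP from postnatal day 0 ovary and the other was input RNA, which was 5% of the starting material, taken from the cleared lysate. Both came from frozen tissue, with 100 ovaries pooled in a homogenate, and the sources used here give neither a strain nor a genotype. No control antibody was among the samples, so RNA bound to ELAVL2 and RNA held back in another way cannot be told apart.

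ELAVL2 belongs to the Hu family of RNA-binding proteins, which bind U-rich and AU-rich stretches of transcripts and are known to affect their stability and translation. HORMAD1 and HORMAD2 are HORMA-domain proteins that sit on axes that have not yet synapsed. Both are needed for checkpoint signalling, and HORMAD1 also for break formation. SYCP2 and SYCP3 build the axial element, the filament that becomes the lateral element of the synaptonemal complex. Cohesin is a ring that holds sister chromatids together. Its meiotic forms use SMC1B in the ring, REC8 or RAD21L as the kleisin that closes it, and STAG3 as the subunit attached to the kleisin. In the newborn mouse ovary, oocytes are completing meiotic prophase and entering a long arrest in which the cohesin laid down before birth must last.

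Both libraries were deep before copies were removed: the RIP had 172711531 aligned tags and the input 210270620, each from 3 pooled lanes. Only 1 tag per position and strand was kept, which left 13787676 RIP tags (7.98%) and 19479946 input tags (9.26%), and the authors called 28332 peaks on these. With 1 sample in each arm, no value has a replicate check and no test between RIP and input is given across genes. The intervals printed with a fold are exact Poisson 95% intervals of the RIP pileup alone, and they cover counting error only. Of 8 germ cell and oocyte markers, 6 were overlapped by a peak, beside 26.2% of protein-coding genes in their length range (4.5 to 177 kb). Of 15 markers of granulosa cells, stroma, endothelium and blood, 2 were overlapped, beside 22.1% of those in theirs (0.815 to 216 kb). The somatic markers were shorter, with a median length of 21.9 kb against 39.8 kb in the germ cell list, so these counts do not show the makeup of the tissue. The 2 overlapped somatic markers were Fshr of the granulosa list (2 peaks, best fold 7.31) and Tek of the endothelial list (1 peak, 3.97). The best folds of the 6 overlapped germ cell and oocyte markers ran from 2.46 to 10.2. The oocyte factors Figla and Nobox held none, nor did the granulosa cell factor Foxl2.

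In the authors' deposited table, 4 of the 8 genes were overlapped by at least 1 peak: Hormad1, Hormad2, Sycp3 and Smc1b, with 16 peaks in all. Among 21900 protein-coding genes of the reference annotation, 23.4% were overlapped by a peak in that table, and 25.8% of the 12741 whose length lay between those of Rec8 (7.39 kb) and Hormad2 (95.4 kb). Rad21l had no row in the table, yet 3 peaks of the peak list lay inside its reference body, which makes 5 of 8 genes and 19 peaks. By reference bodies the background was 24.1% of all protein-coding genes and 26.8% of those in the same length range. Sycp2 was paired only with peaks outside it, and Rec8 and Stag3 were paired with none. A gene without a peak is not shown to be unexpressed or unbound, and in whole ovary fewer oocytes and less RNA per oocyte cannot be told apart.

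In Hormad1, Hormad2 and Sycp3, 1 peak had its summit within 300 bp of the annotated start of the gene. The 150 bases just before the transcript start of these genes are shown (RefSeq, GRCm38.p6), since a peak begins close after that start. The peaks themselves lie outside the printed stretch, and their distances are counted from the gene start in the authors' deposited table, which in Sycp3 and Hormad2 differs slightly from the RefSeq transcript start used here. Hormad1 has more than 1 RefSeq window, and the first is shown. Capitals mark the E-box CACGTG and the E2F core TCCCGC, the second also as its reverse complement GCGGGA.
Hormad1 (chr3:95559527-95559676, plus strand): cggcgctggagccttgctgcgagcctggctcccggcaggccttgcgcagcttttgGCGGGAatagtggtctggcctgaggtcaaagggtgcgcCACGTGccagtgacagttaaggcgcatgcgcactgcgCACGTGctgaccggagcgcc
Sycp3 (chr10:88459437-88459586, plus strand): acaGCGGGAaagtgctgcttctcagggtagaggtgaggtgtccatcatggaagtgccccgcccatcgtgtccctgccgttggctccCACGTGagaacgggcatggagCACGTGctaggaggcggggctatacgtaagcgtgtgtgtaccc
Hormad2 (chr11:4441083-4441232, minus strand): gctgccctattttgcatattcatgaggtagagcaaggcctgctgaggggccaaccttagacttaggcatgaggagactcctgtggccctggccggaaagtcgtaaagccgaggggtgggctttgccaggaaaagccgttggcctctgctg

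CACGTG is bound by MAX-type factors such as MGA, and TCCCGC by E2F6, and in other mouse cells both factors are known for holding germline genes silent. The motifs were chosen after the sequences had been seen, and a match is a description of letters only. The windows searched on both strands ran from 250 bases before to 50 after the start. Hormad1 and Sycp3 each held 2 E-boxes and 1 E2F core. The E-boxes began at -57 and -20 in Hormad1 and at -64 and -43 in Sycp3, counted from the transcript start. The Hormad2 window held neither motif. Of the 8 genes, 3 (Hormad1, Sycp3 and Stag3) had an E-box and 5 (Hormad1, Sycp3, Smc1b, Rec8 and Stag3) an E2F core. Among 27025 genes with promoter windows of the same length, 8.09% had an E-box, 0.681% had at least 2 in a window, and 22.0% had an E2F core. No 2 matches shared a base in the 3 stretches shown.

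Hormad1, whose protein recruits the break-forming machinery to the axis, had the largest fold of the 8 genes (chromosome 3, 95559677 to 95587671, mm10; Ensembl gene ENSMUSG00000028109). Its 3 peaks lay at the start, inside, and at the 3' end of the body. At the first peak (95559855 to 95559936, summit 218 bp after the gene start) the RIP pileup, the count of tags stacked at the summit, was 16, against an input level of 0.708. The input level is the peak caller's scaled local background, and 0.708 is what 1 input tag is worth. The authors' fold there, which has a pseudocount of 1 on both sides, was 9.95 (5.94 to 15.8), with a -log10 q of 12.3. This fold was above those of 99.2% of all peaks in the list and above 96.9% of the 2528 peaks whose input level was within 10% of the same value, so it was high also among peaks with as little input.

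The second Hormad1 peak (95578221 to 95578274) had a RIP pileup of 18 against an input level of 1.59 and a fold of 7.33 (4.50 to 11.4). The third (95587418 to 95587476, summit 243 bp before the 3' end) had a RIP pileup of 47 against an input level of 23.4 and a fold of 1.97 (1.46 to 2.61). Of the 3 Hormad1 peaks, the one at the 3' end therefore had the most RIP tags, the highest input level and the lowest fold. The interval of the third fold did not overlap those of the other 2 peaks, though these intervals leave out the counting error of the input. In the reference annotation the third peak also lies in Gm40097, a long noncoding RNA gene, and the peaks carry no strand.

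Hormad2, the related protein that marks unsynapsed axes for checkpoint signalling, had 3 peaks with few tags (chromosome 11, 4345814 to 4441105, minus strand; ENSMUSG00000020419). At the peak near its start (4440956 to 4441005, summit 129 bp after the start) the RIP pileup was 6 against an input level of 0.369. The peak at 4421942 to 4422028 also had a RIP pileup of 6, against an input level of 0.425. The peak in the middle of the body (4389243 to 4389398) had a RIP pileup of 10 against an input level of 0.369 and carried the best fold, 8.04 (4.23 to 14.2). All of these inputs are at or near 0.369, the genome-wide background that the caller uses where local input is lower, and the lowest fold called at that background was 3.65. The other 2 folds were 5.11 (2.34 to 10.3) and 4.91 (2.25 to 9.87), so the intervals of the 3 Hormad2 peaks overlap. Among the 2281 peaks at a like input level, the best Hormad2 fold exceeded 88.7%, and the one near the start exceeded 18.1%. Unlike the other 4 genes with peaks, Hormad2 had none within 1000 bp of its 3' end. The authors' deposited table also pairs Hormad2 with 2 peaks that lie 39950 and 56071 bp upstream of it. Both are inside Mtmr3, and they are kept apart from the peaks in Hormad2.

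**Figure D1:**
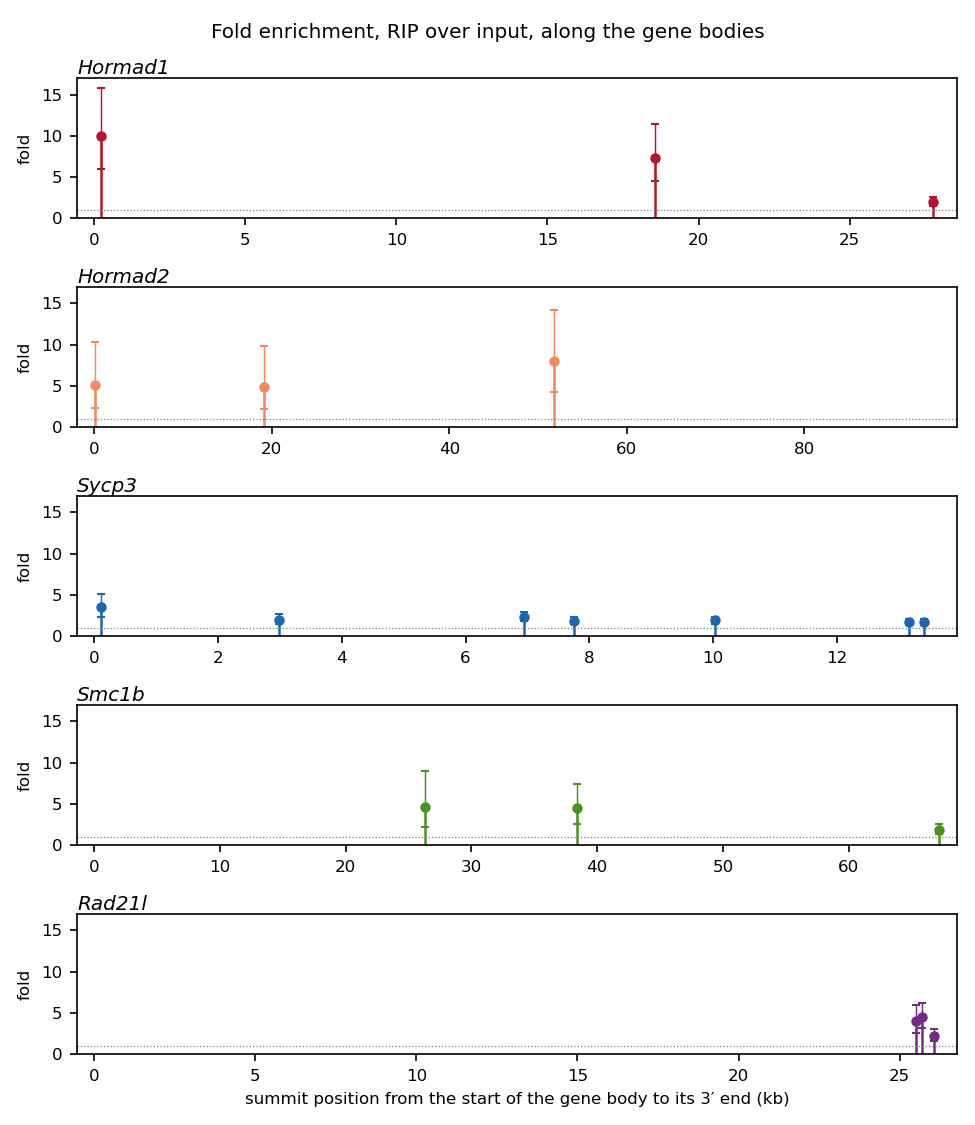
Fold enrichment of the ELAVL2 RIP over input (vertical axis) against the summit's distance from the start of the gene body (horizontal axis, kb), with 1 panel per gene; bars on the points are exact Poisson 95% intervals of the RIP pileup, and the dotted line is a fold of 1. Hormad1, Hormad2 and Sycp3 have a peak at the very start, while the 3 Rad21l peaks all lie in the last 760 bp.

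Sycp3, which encodes the core filament protein of the axis, had the most peaks of the 8 genes, 7 in a body of 13.7 kb (chromosome 10, 88459569 to 88473236; ENSMUSG00000020059). That is 5.12 peaks per 10 kb, more than in 93.5% of the 4921 overlapped protein-coding genes that the table lists under their current symbol, against 1.07 in Hormad1, 0.446 in Smc1b and 0.315 in Hormad2. From the first to the last along the gene, the RIP pileups were 25, 45, 64, 80, 82, 73 and 79. The input levels at the same peaks were 6.37, 21.9, 26.9, 42.5, 42.5, 42.5 and 46.0. The RIP pileup and the input level were thus both several-fold higher at the last 4 peaks than at the first. The last 4 pileups exceeded those of at least 99.2% of all peaks. They also approach the ceiling of 100 that 1 tag per position and strand sets for tags extended to 50 bp.

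The best Sycp3 fold was 3.53 (2.33 to 5.14), at the peak near the gene start (88459676 to 88459725, summit 113 bp after the start). The other 6 folds lay between 1.70 and 2.33, and the 2 lowest were at the last peaks, with summits 508 and 256 bp before the 3' end. At the peak at 88466468 to 88466545 the fold of 2.33 exceeded 89.9% of 956 peaks of like input level, whereas the fold at the gene start exceeded 45.8% of 903. A fold that is low in the whole list can thus be high among peaks with as much input. All 7 peaks also overlap Chpt1, a phospholipid synthesis gene, in the authors' deposited table. In the reference annotation the first 4 lie in Sycp3 alone and the last 3 in both genes. Because the peaks carry no strand, Sycp3 RNA and Chpt1 RNA cannot be told apart at the shared ones.

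Sycp2, the partner of SYCP3 in the axial element, was not overlapped by any peak (chromosome 2, 178345293 to 178407685; ENSMUSG00000060445). The authors' deposited table pairs it with 4 peaks that lie 9369 to 61261 bp downstream of it. Their folds were 2.84, 3.48, 3.37 and 3.44, and all 4 lie inside Phactr3, a neighbouring gene, both in that table and in the reference annotation. They are therefore positions in another gene and say nothing of Sycp2 RNA.

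Among the cohesin genes, Smc1b, the meiotic SMC subunit (chromosome 15, 85064691 to 85131957, minus strand; ENSMUSG00000022432), had 3 peaks. Along the gene, the RIP pileups were 7, 13 and 38 against input levels of 0.708, 2.12 and 19.8. The folds were 4.68 (2.23 to 9.03), 4.48 (2.54 to 7.44) and 1.87 (1.34 to 2.55). As in Hormad1, the peak at the 3' end (85064710 to 85064783, summit 65 bp before the end) had the most RIP tags and the lowest fold. Unlike in Hormad1, the interval of this end peak overlapped those of the other 2, though only just that of the fold of 4.48. The fold of the end peak exceeded 2.0% of 1603 peaks of like input level. Its -log10 q of 1.33 was just past the caller's threshold of q 0.05. All 3 Smc1b peaks overlap only Smc1b in the authors' deposited table, but in the reference annotation they also lie in the longer body of Fam118a.

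Rad21l, a kleisin found only in meiotic cells, carried 3 peaks close together at its 3' end (reference body on chromosome 2, 151644366 to 151670622, minus strand). In the order of transcription the RIP pileups were 22, 35 and 36 against input levels of 4.74, 7.08 and 15.6. Their folds were 4.01 (2.58 to 5.97), 4.46 (3.14 to 6.15) and 2.23 (1.58 to 3.07). The summits lay 760, 567 and 202 bp before the 3' end, so the whole signal called in Rad21l falls in the last part of the gene, at moderate input. The middle one (151644906 to 151644956) had a -log10 q of 9.45, above those of Smc1b and Sycp3 and above that of Hormad2, and its fold exceeded 91.4% of 1506 peaks of like input level. The authors' deposited table pairs all 3 with Snph alone, as lying 11864 to 12465 bp upstream of that gene. No other reference gene overlaps them. Of 6964 peaks that the table places outside every gene, 1009 (14.5%) lay in a protein-coding body of the reference annotation, so Rad21l is 1 case among many.

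Rec8, the other meiotic kleisin, and Stag3, the subunit that binds both kleisins, had no peak in their reference bodies (Rec8 on chromosome 14, 55618002 to 55625395; Stag3 on chromosome 5, 138272514 to 138312397). The nearest peaks lay 10704 bp from Rec8, in Tm9sf1 (fold 2.05), and 12688 bp from Stag3, in Map11 (fold 2.31). Input levels over Rec8, Stag3 and Sycp2 were not analysed here, since the peak list gives a level only at peaks. An enrichment below the caller's threshold would not be listed.

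**Figure D2:**
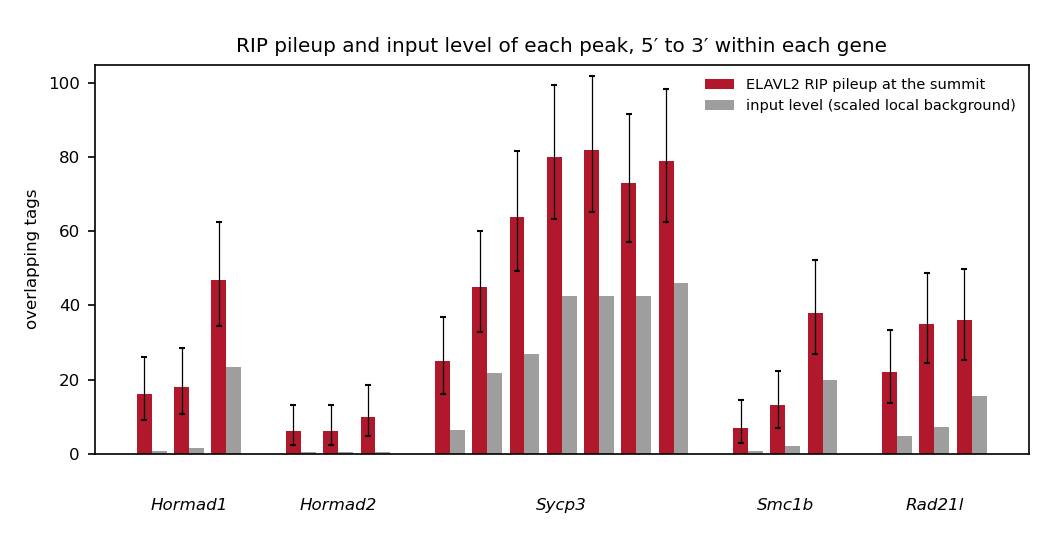
RIP pileup at the summit (red, left bar of each pair) and input level (grey, right bar) in overlapping tags for the 19 peaks, ordered from the start to the 3' end within each gene; error bars are exact Poisson 95% intervals of the RIP pileup. Sycp3 has the tallest bars in both, up to 82 against 42.5, and the Hormad2 input bars are at 0.369 or 0.425.

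Ordered by best fold, the genes ran Hormad1 at 9.95, Hormad2 at 8.04, Smc1b at 4.68, Rad21l at 4.46 and Sycp3 at 3.53. The counting intervals of each pair of neighbours in that order overlap. Those of Hormad1 (5.94 to 15.8) and Sycp3 (2.33 to 5.14) do not. By the largest RIP pileup the order was another one, with 82 in Sycp3, 47 in Hormad1, 38 in Smc1b, 36 in Rad21l and 10 in Hormad2. The genes with the highest folds were those with the lowest input levels at the peak. With a pileup of at least 20, Hormad1 keeps only its 3' peak (fold 1.97) and Smc1b likewise (1.87), Hormad2 has no peak, and Sycp3 and Rad21l keep 3.53 and 4.46. Without the pseudocount the best folds were 27.1 in Hormad2, 22.6 in Hormad1, 9.89 in Smc1b, 4.94 in Rad21l and 3.92 in Sycp3.

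**Figure D3:**
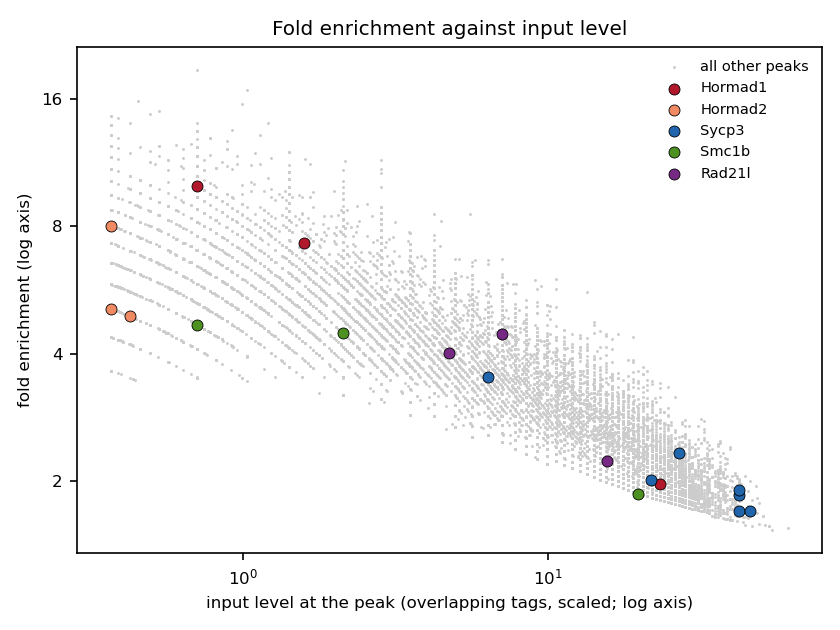
Fold enrichment (vertical, log axis) against input level (horizontal, log axis, scaled overlapping tags) for all 28332 peaks, with the peaks of the 5 genes in colour. Fold falls with input level along the whole list, and the Hormad1 peak at a fold of 9.95 and the Rad21l peak at 4.46 lie toward the upper edge of the cloud at their input.

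The placement of the peaks along the genes differed from that of the list at the gene start, while the share near the 3' end was close to it. Summits within 300 bp of a gene start made up 3 of the 16 peaks in the 4 genes of the table, against 303 of 19371 peaks in exactly 1 gene (1.56%). The 7 Sycp3 peaks overlap 2 genes in that table, and the 9 other peaks, like those 19371, overlap exactly 1 gene there. Of the 9, 2 had their summit near the start and 2 near the 3' end. In the reference annotation these 2 end peaks also lie in Gm40097 (Hormad1) and Fam118a (Smc1b). Counted by gene, 3 of 8 had a start peak, against 0.909% of protein-coding genes. At the other end, 4 of the 16 summits (7 of 19 with Rad21l) lay within 1000 bp of the 3' end, against 27.8% of the peaks in exactly 1 gene. By gene, summits within 1000 bp of the 3' end were found in 3 of 8 in the table (Hormad1, Sycp3 and Smc1b), and 4 with Rad21l, against 13.3% of protein-coding genes. The shares over the list and over protein-coding genes use the bodies of the authors' deposited table, whereas Rad21l is placed by its reference body. No share by reference bodies was computed for the ends. Hormad1 and Sycp3 had both a start and an end peak, as did 0.689% of protein-coding genes. In the list as a whole, peaks near a start had a median RIP pileup of 33 against a median input level of 10.6, and a median fold of 2.84. The start peaks of Hormad1 and Hormad2 had far fewer tags, 16 and 6, over an input of at most 0.708. Only the Sycp3 start peak has a pileup of at least 20. Distances run along gene bodies with their introns, and which peaks lie in exons was not analysed here.

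Cohesin also has subunits and regulators shared with mitosis, and the axis has further partners. By reference bodies, which include Rad21l, the median best fold of the 5 axis and meiotic cohesin genes with a peak was 4.68, beside 4.42 over 5284 protein-coding genes. In the authors' deposited table, without Rad21l, it was 6.36 over 4 genes, beside 4.38 over the 4921 genes listed under a current symbol, so the distance from other genes rests on leaving Rad21l out. Of 5 core cohesin genes, 1 was overlapped: Stag1, the mitotic counterpart of STAG3, had 2 peaks, the better at 2.11, and 41.3% of protein-coding genes in the length range of that list were overlapped. Of 14 genes for loading, release, cohesion and protection, 8 were overlapped, beside 28.2% of protein-coding genes in their length range (6.68 to 221 kb). The median best fold of the 8 was 3.18 (2.27 to 7.31). These medians rest on genes that hold a peak and describe the lists only.

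In that list the loader subunit Mau2 had 1 peak (2.41) in the table and 3 (best fold 3.58) in its reference body. Wapl, which opens the cohesin ring, had 5 peaks (best fold 2.27). Pds5a, a regulator of release, also had 5 (2.57). Esco2, an acetyltransferase that establishes cohesion, had 6 (4.05, at a RIP pileup of 26 against an input level of 5.66). The shugoshins, which shield centromeric cohesin, had 1 peak in Sgo1 (5.54, RIP pileup 32 against 4.95) and 3 in Sgo2a (3.53). Hdac8, the SMC3 deacetylase, had 1 peak with few tags (7.31, RIP pileup 9 against 0.369), and Ctcf, which positions cohesin on DNA, had 2 (2.84). The authors' deposited table lists the shugoshin genes under the older symbols Sgol1 and Sgol2a. The -log10 q of 11.2 in Sgo1 was the largest among the genes of the 3 related lists.

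Of 8 partners of the axis, 4 were overlapped, beside 34.9% of protein-coding genes in their length range (16.3 to 342 kb). Iho1, which binds HORMAD1 (Ccdc36 in the table), had 2 peaks (best fold 3.73). Its partners in break formation, Mei4 and Rec114, had 4 peaks (5.85, at a RIP pileup of 7 against an input level of 0.369) and 1 peak (3.75). Skp1a, a ubiquitin ligase subunit found on synapsed axes, had 4 peaks (3.23). The best Iho1 peak also overlaps 1700102P08Rik and the best Skp1a peak Gm26551. With only peaks in exactly 1 gene counted, Mei4 and Rec114 remain.

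**Figure D4:**
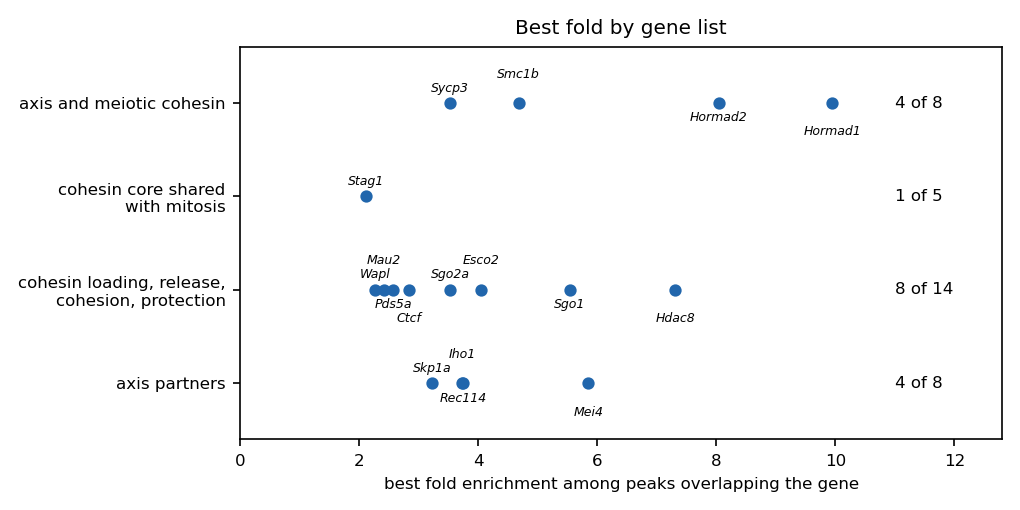
Best fold enrichment of each gene overlapped by a peak in the authors' deposited table (horizontal axis), with 1 row per gene list and the number of overlapped genes of all genes at the right. Hormad1 (9.95) and Hormad2 (8.04) lie to the right of every gene of the 3 related lists, the highest of which is Hdac8 at 7.31.

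The genes nearest in pattern were sought among 4427 protein-coding genes whose best peak overlaps exactly 1 gene, by distance over log2 fold, log2 pileup and relative summit position, each in units of its SD across genes. Nearest to Hormad1 (fold 9.95, pileup 16, 0.779% of the body) were Lama2 at a distance of 0.104 (fold 10.0, pileup 17, 2.13%) and Mybl1 at 0.162 (fold 10.5, pileup 17, 0.765%). Nearest to Hormad2 were Agtpbp1 (0.00586) and Tmtc1 (0.0809), each with a pileup of 10 and a fold of 8.04. Nearest to Smc1b were Ralyl (0.00325) and Cbl (0.0307), each with a pileup of 7 and a fold of 4.68. A small whole pileup over the same background gives the same ratio. Sycp3 has no peak in 1 gene alone, and Rad21l is not in the table, so neither was placed.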

How the data were processed

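One anti-ELAVL2 RIP and 1 input of newborn ovary RNA were amplified, made into stranded libraries and read as single ends of 36 bases, per the labels' protocols. The submitters' processing notes list build mm10 and the tools MACS2 2.1.0.20140616, TopHat2 2.0.8b, CASAVA 1.8.2 and FastQC 0.11.2. The authors pooled the lanes before calling peaks, with tags extended to 50 bp, 1 tag per position, a q-value cutoff of 0.05 and local windows of 1000 and 10000 bp, per the file headers. The deposited pileup is the signal of RIP tags at the summit. The deposited fold is a ratio with a pseudocount of 1, and the deposited -log10 p-value and q-value come from the same caller. How the authors paired peaks with genes, and which annotation they used for it, is unstated in the sources.

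From the deposited table, 42176 repeated rows of 85730 were dropped. Input levels were computed from pileup and fold, with 1 input tag worth 0.708. Of the overlapped symbols, 5506 matched a reference gene. For 99.9% of them, the gene body in the authors' deposited table overlapped the reference body. The steps for overlap, input level and motifs were tested on simulated data. The members, the gene lists, the motifs and the distance limits were chosen with earlier results of these data known. Each of the 8 genes is named, with each overlapped gene of the related lists and the 2 genes nearest in pattern to each. No test was made, since each arm holds 1 sample. The alternatives were stricter q, fold and pileup thresholds, peaks in or paired with 1 gene, merged neighbours, any pairing, reference bodies and a fold without the pseudocount. The software was matplotlib 3.10.9, scipy 1.17.1, pandas 2.3.3 and numpy 2.4.6 under Python 3.11.15.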

Additional observations from a re-analysis of the deposited data

How the results depend on the processing

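Of 91 values recomputed under the alternatives, 65 stayed within 1.5 times the reported count or within the counting interval of the reported fold. Counting only peaks paired with exactly 1 gene left 2 genes (Hormad1 and Hormad2), 4 peaks and 0 end peaks, and 0, 3 and 1 genes of the core cohesin, regulator and partner lists. A -log10 q of at least 3 left 10 peaks, 0 end peaks and 0 core cohesin genes. A fold of at least 4 left 7 peaks, 0 end peaks, and 0, 3 and 1 genes of the 3 lists. Apart from those by reference bodies, the peak counts in this paragraph leave out Rad21l. Its end peaks with folds of 4.46 and 4.01 (-log10 q 9.45 and 5.18) pass both this fold threshold and that of q. A pileup of at least 20 left 9 peaks, 1 start peak and 2 partner genes, with best folds of 1.97 in Hormad1 and 1.87 in Smc1b. Peaks in exactly 1 gene gave 9 peaks, 2 end peaks and 2 partner genes. Reference bodies gave 7 end peaks. Without the pseudocount the best folds were 22.6 in Hormad1, 27.1 in Hormad2 and 9.89 in Smc1b. In each case fewer peaks, another body or another formula is the alternative's own construction. The share of all 21900 protein-coding genes overlapped by a peak also fell under the stricter thresholds, from 23.4% as reported. It was 19.5% at a -log10 q of at least 3 and 17.1% at a pileup of at least 20. At a fold of at least 4 the share was 13.5%. No such share was computed for peaks in, or paired with, exactly 1 gene. Hormad2 has no peak at a pileup of at least 20, Sycp3 none at a fold of at least 4 or in 1 gene alone, and Smc1b none paired with exactly 1 gene. The Rad21l values under stricter thresholds were added after seeing the data. The start peaks of Hormad1 and Hormad2 rest on 16 and 6 RIP tags. No paired analysis was possible because each arm holds 1 sample.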
